A study of Mus musculus with 9 samples.

Results

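Transcript levels of autosomal genes were compared between XX and XY mouse oocytes in the growth phase. The members are the genes that the deposited coordinates (GRCm38) place on chromosomes 1 to 19, 26808 of the 28052 genes in the count table, of which 10576 had enough UMIs to be tested. A UMI, or unique molecular identifier, labels each captured transcript end before amplification, and PCR copies with the same label count as 1.

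All females were 18 dpp old, on C57BL/6, and both genotypes were littermates from crosses of B6.YTIR males with C57BL/6 females. B6.YTIR is a strain in which the Y chromosome of a wild-derived mouse sits on the C57BL/6 background, where XY carriers can develop ovaries. Each of the 3 XX and 3 XY samples pooled 30 oocytes, of which 10 measured 50–55 μm across and 20 measured 55–60 μm. The 3 XO samples, from Paf carrier fathers on a background backcrossed from C3H/HeSnJ to C57BL/6, entered the fit to share its estimate of the spread between samples, and their levels are given only as values. Such pools are bulk samples, in which fewer cells of a type and less RNA per cell cannot be told apart. The labels number the replicates without tying them to animals, so that p-values measure the spread between these pools.

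A growing oocyte makes and stores most of the mRNAs and proteins that it later uses, once its own transcription has stopped, for the meiotic divisions, fertilization and the start of embryonic development. Its genes therefore include those of the zona pellucida (the egg coat), of the subcortical maternal complex needed by the early embryo, of meiosis and of mRNA storage. The autosomes are present in the same number in XX and XY oocytes, whereas the X chromosomes differ in dose and the Y chromosome is present in XY oocytes alone.

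Gene UMIs per sample numbered 2130145 to 3157338, of which autosomal genes held 1859306 to 2972197. Y-linked genes together had 2331 to 2437 UMIs in the XY samples and 104 to 187 in the XX samples. All 14 oocyte markers were detected, with a summed level of 25140 to 26056 normalized CPM in XX and 19525 to 24121 in XY samples, which did not overlap. Most of this sum was Zp2, at 15914 to 17150 in XX and 10049 to 16341 in XY samples. Pools of 1 genotype differed in some of these markers, as H1foo, the oocyte linker histone, ranged from 85.4 to 155 in XX, from 30.2 to 175 in XY and from 15.5 to 2576 in XO samples. Normalized CPM is the deposited unit, the UMI count divided by the gene total times a factor, and expressed as CPM. The factor comes from the ERCC spike-ins, RNAs added in a fixed amount. It compares the make-up of the spike-ins relative to their own total, so that their amount per pool does not enter. With these factors, 7 of the 13 tested oocyte markers were lower in XX samples, and none had an unadjusted p below 0.05 (edgeR). Their median log2 fold change (XX minus XY) was -0.008. Of 11 granulosa cell markers, Fst had no UMI in these 6 samples, Amhr2, Inha, Gatm and Wt1 had none in XX and 1 or 2 in XY samples, and the summed level was 59.2 to 84.4 in XX and 68.7 to 121 in XY samples. Of 5 blood and immune markers, Cd68 and Cd74 were at 0, and the sum was 7.70 to 15.5 in XX and 4.18 to 13.9 in XY samples. Of 6 endothelial markers, none was at 0 over these 6 samples, and the sum was 27.0 to 60.0 in XX and 44.2 to 75.5 in XY samples. Among them Cd34 had 2 UMIs in XX and 26 in XY samples and Cdh5 9 and 23, and for both all XY samples were above all XX samples, while Pecam1 had the highest level. Of 9 theca and stroma markers, Col1a1 was at 0, and the sum was 4.87 to 13.9 in XX and 8.75 to 11.2 in XY samples. The part of other cells in the results below was not tested.

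In the main fit, autosomal DEGs between XX and XY oocytes were few, and most of them had lower transcript levels in XX oocytes. The number depended on the model, and the direction turned under 1 of the scalings below. With the spike-in factors, 66 genes (0.624% of those tested) were higher and 457 (4.32%) were lower in XX than in XY oocytes at an unadjusted p below 0.05, the threshold that the study used (edgeR quasi-likelihood test). Both directions together made up 4.95% of the tested genes, about the share that this threshold alone would give if no gene differed. That share belongs to this fit. At the same threshold, DESeq2 gave 70 higher and 502 lower and limma-voom 71 and 463 of the 10576 genes. Limma-voom with surrogate variables gave 418 and 1907, a replicate block 133 and 712, and edgeR on the XX and XY samples alone 136 and 740 of 9988. The study itself included surrogate variables as covariates in a limma model, so that its threshold but not its model was used in the main fit. After Benjamini-Hochberg adjustment over all tested genes, 0 genes were higher and 1, Evi2b, was lower in XX oocytes with edgeR, while DESeq2 gave 5 and 47, limma-voom 0 and 0, limma-voom with surrogate variables 143 and 793, and edgeR on the XX and XY samples alone 0 and 11. Leaving out 1 sample at a time gave 24 to 84 genes higher and 261 to 420 lower. The higher genes fell to 24 without XY2 and 42 without XX2, and the lower genes to 261 without XX2, 282 without XX3 and 304 without XY1.

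The direction of these counts moved with the scaling of the samples. With trimmed mean (TMM) factors computed on the genes themselves, 162 genes (1.53%) were higher and 281 (2.66%) lower in XX oocytes, and the share of DEGs that were higher in XX was 36.6% in place of 12.6%. Both directions made up 4.19% of the tested genes with the gene factors. The median log2 fold change (XX minus XY) of all tested autosomal genes was -0.20 with the spike-in factors and -0.04 with the gene factors. Called with both scalings in the same direction were 66 genes higher (0.624%) and 280 genes lower (2.65%) in XX oocytes. The 66 genes are all those called higher with the spike-in factors, whereas 177 genes were lower only with the spike-in factors and 96 higher only with the gene factors. Both scalings start from the same counts, so that the second is no independent evidence for the first.

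When the levels were instead taken per spike-in UMI, so that the amount of RNA per pool counts, the median moved to 0.48, and 137 genes were higher and 24 lower in XX oocytes. The spike-ins held 5388 to 15190 UMIs in XX and 9853 to 18532 in XY samples. Under all 3 scalings, 54 genes were called higher and 24 lower in XX oocytes. Of the named genes, Evi2b, Kcnj13, Pde1a, Otx1, Abcg2 and Meioc were among these 24, and Phgdh, Spsb3, Clock, Col4a4, Ms4a1, Fcgr1, Tex26, Pwwp2a, Larp6, Psmg4, Slc9a2 and Zfp24 among these 54. Every other named gene that was called with both scalings lost its call per spike-in UMI.

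**Figure D1:**
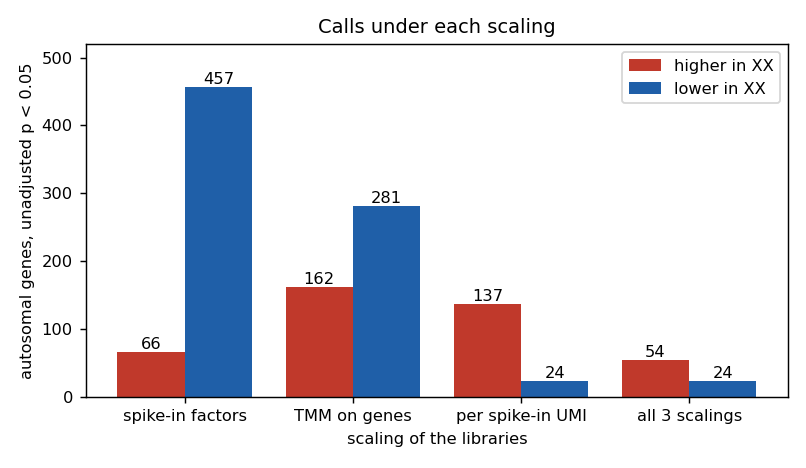
Number of autosomal genes (y axis) with an unadjusted p below 0.05 in the edgeR test of XX against XY oocytes under each scaling of the libraries (x axis), red for higher and blue for lower in XX. Lower genes go from 457 with the spike-in factors to 24 per spike-in UMI, and 54 genes were higher and 24 lower under all 3 scalings.

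The XX and XY samples did not overlap for 59 of the 66 and 257 of the 280 genes called with both scalings. Over all tested genes, 2.9% were higher and 11.7% lower in all XX than in all XY samples with the spike-in factors, and 6.6% and 7.48% with the gene factors. Where the pools of a called gene are said below to be apart, this is a description and no added support. Of the 280 genes, 228 differed by more than 2-fold with a median size of 1.30 on the log2 scale, and of the 66 genes 45 did, with a median of 1.11. The median level of the genes lower in XX was 10.2 normalized CPM, that of the higher genes 10.0, and that of all tested genes 15.3. In these 6 samples 1 normalized CPM was worth 2.15 to 3.31 UMIs.

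The share of genes lower in XX with both scalings was 3.40% among the 2116 least abundant and 0.804% among the 2115 most abundant tested genes. By annotation (Gencode vM21), 2.59% of 8506 protein-coding genes, 3.34% of 1556 long noncoding genes and 1.34% of 448 pseudogenes were lower in XX oocytes. Higher in XX were 0.470%, 1.16% and 1.56% of them, respectively. Of the 66 genes higher in XX, 33 carried only a clone or pseudogene name, as did 66 of the 280 lower genes, and these are not described singly.

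**Figure D2:**
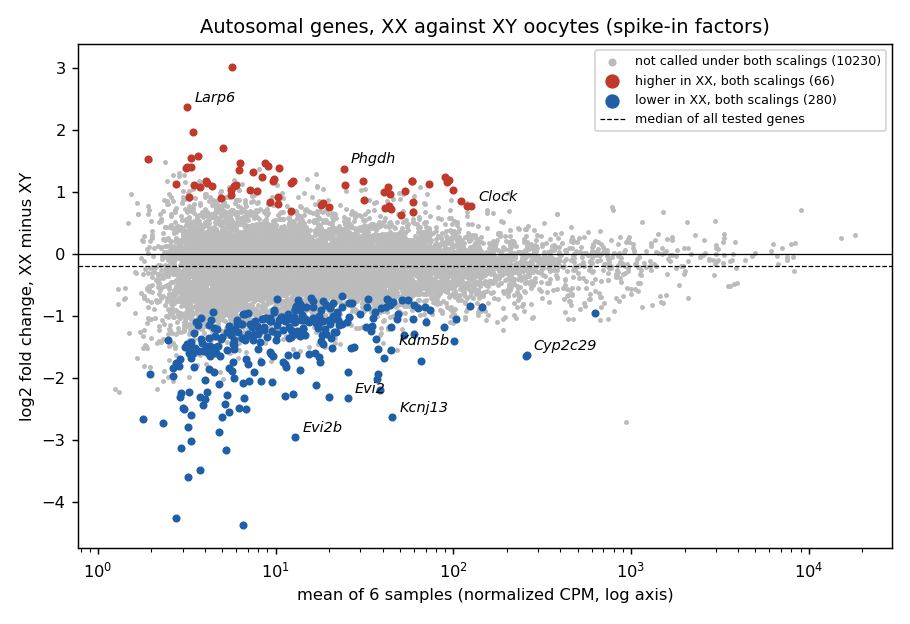
Log2 fold change (XX minus XY, spike-in factors, y axis) of each tested autosomal gene against its mean level in the 6 samples (normalized CPM, log x axis), with the genes called under both scalings in red (higher in XX, 66) and blue (lower in XX, 280). Most blue points lie below 100 normalized CPM, and the median of all genes (dashed) lies at -0.20.

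Evi2b, Kcnj13 and Evi2 had the largest differences among the genes named by the fixed rule. This rule takes genes of at least 10 normalized CPM without overlap between XX and XY samples. For genes named by it, here and below, the separation of the groups was set by the choice. Evi2b, a membrane protein gene known from sites of viral integration in leukaemia (chr11:79515056-79523762), had 3.56, 1.75 and 3.35 normalized CPM in XX1, XX2 and XX3 and 21.4, 16 and 31.1 in XY1, XY2 and XY3. Every XY sample was above every XX sample, and the log2 fold change was -2.96 ± 0.40 (SE), with an adjusted p of 0.0347 with the spike-in and 0.0285 with the gene factors (edgeR). XO samples, with 3.62, 3.62 and 3.95 normalized CPM, were near the XX samples. When any 1 of the XX or XY samples was left out, Evi2b was called at the unadjusted p, but 0 genes passed the adjusted threshold.

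Evi2 (chr11:79513385-79530589) contains Evi2b on the same strand, so that reads of one may count for the other. Its levels were 9.26, 5.95 and 10.1 in XX and 38.6, 30.9 and 58.0 in XY samples, a 5.02-fold difference, with adjusted p of 0.0629 and 0.0734 under the spike-in and gene factors. Both genes lie inside Nf1 (chr11:79339693-79581612), on its opposite strand. Nf1, which encodes a negative regulator of RAS and was named after its values were seen, had 54.1, 35.7 and 43.3 in XX and 81.3, 66.1 and 97.8 in XY samples. It was also lower in XX oocytes, by 1.84-fold, with unadjusted p of 0.0108 and 0.0239. Nf1 lost its call without XX2 or XY3, with log2 fold changes of -0.75 to -0.72 there. Evi2 and Nf1 were not called per spike-in UMI, with log2 fold changes of -1.66 and -0.23.

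Kcnj13, which encodes the inwardly rectifying potassium channel KIR7.1, lies within Gigyf2 on the opposite strand (chr1:87386363-87394729). It had 12.1, 20.0 and 5.48 normalized CPM in XX and 93.9, 61.5 and 79.1 in XY samples, and the groups were far apart. The log2 fold change was -2.64 ± 0.50 with the spike-in factors and -2.47 with the gene factors, with unadjusted p of 0.000378 and 0.000955. XO samples, at 21.7, 9.82 and 10.7, lay near the XX samples. Gigyf2, a translational repressor gene named after its values were seen, had 98.0, 89.6 and 67.3 in XX and 184, 123 and 135 in XY samples, and it was called with the spike-in factors (0.0345, unadjusted p) but not with the gene factors (0.0863). Kcnj13 was the one called gene among 17 tested potassium channel genes.

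The promoters that RefSeq gives for 3 of the named genes are shown, because Evi2b passed the adjusted threshold, Kcnj13 had the second largest log2 fold change of the genes in the plot of named genes, and Phgdh the largest of those in it that were higher in XX oocytes. Each run has 120 bases before and 30 after the start (GRCm38.p6), and capitals mark the TATA box (TATAAA), the CCAAT box and the E box (CANNTG), searched on both strands.
Evi2b (chr11:79523733-79523882, minus strand): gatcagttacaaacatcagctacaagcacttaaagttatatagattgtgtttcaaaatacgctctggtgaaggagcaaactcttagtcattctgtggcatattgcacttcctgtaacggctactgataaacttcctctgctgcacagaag
Kcnj13 (chr1:87394700-87394849, minus strand): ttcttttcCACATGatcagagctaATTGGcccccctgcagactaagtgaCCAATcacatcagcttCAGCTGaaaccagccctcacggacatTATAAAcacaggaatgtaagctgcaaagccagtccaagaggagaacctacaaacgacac
Phgdh (chr3:98339940-98340089, minus strand): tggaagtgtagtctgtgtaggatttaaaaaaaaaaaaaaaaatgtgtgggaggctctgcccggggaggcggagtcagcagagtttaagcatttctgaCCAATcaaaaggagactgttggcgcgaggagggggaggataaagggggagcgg
In this window the Kcnj13 promoter holds the TATA box 29 bases before the start, 2 CCAAT motifs on opposite strands and 2 E boxes, that of Phgdh holds 1 CCAAT motif, and that of Evi2b holds none of these letters. Of 32851 RefSeq promoters of the same length, 7.16% hold the TATA box, 24.0% the CCAAT box and 47.6% the E box. Where the oocyte transcripts start was not examined here.

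Genes of signalling and membrane transport were among the other genes lower in XX oocytes. Pde1a, a calmodulin-dependent phosphodiesterase that breaks down cyclic nucleotides, had 9.26, 4.55 and 6.09 in XX and 46.9, 28.6 and 23.8 in XY samples, a 4.96-fold difference (unadjusted p 0.00110 and 0.00219 with spike-in and gene factors). Its XO samples, at 55.9, 17.6 and 26.5, lay above all XX samples. Epha7, an ephrin receptor, had 6.06, 3.50 and 5.48 in XX and 22.8, 12.0 and 16.3 in XY samples, and all XX samples were below all XY samples. Tspan8, a tetraspanin of the cell surface, had 5.34, 2.45 and 3.66 in XX and 23.2, 12.0 and 21.4 in XY samples. It lies within the antisense gene 4930422I22Rik, which was also lower in XX oocytes, by 1.61 on the log2 scale, so that the pair is uncertain. Epha7 and Tspan8 were not called per spike-in UMI, with log2 fold changes of -0.94 and -1.64.

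Of the solute carriers, which carry small molecules across membranes, 135 were tested, 1 was higher (Slc9a2) and 6 were lower in XX oocytes with both scalings, which is 0.741% and 4.44%, beside 0.624% and 2.65% of all tested autosomal genes. The lower genes were Slc16a4, Slc23a3, Slc26a5, Slc2a12, Slc44a3 and Slc5a4b. The median log2 fold change of the list was -0.13 with the spike-in and 0.03 with the gene factors, against -0.20 and -0.04 over all tested genes. Slc9a2 lost its call without XX1, XX2, XY2 or XY3, with log2 fold changes of 0.90 to 1.06 there. Slc23a3 was at 15, 12.6 and 13.7 in XX and 27.4, 67.4 and 95.4 in XY samples, with a wide spread among the XY pools. Slc26a5, which encodes the motor protein prestin of the inner ear, was at 10.7, 9.80 and 11.9 in XX and 24.6, 28.6 and 39.5 in XY samples, a 2.86-fold difference. Slc44a3, a choline transporter-like gene, was 3.14-fold lower in XX oocytes. Slco1a4, an organic anion transporter outside this list, was 3.20-fold lower in XX oocytes, and single samples mattered. Slco1a4 lost its call without XX2, XX3 or XY1, with log2 fold changes of -1.51 to -1.25 there. Slc23a3, Slc26a5, Slc44a3 and Slco1a4 were not called per spike-in UMI, with log2 fold changes of -1.72, -0.87, -1.05 and -0.98.

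Cyp2c29, a cytochrome P450 gene, was the most abundant gene named for its difference, with 113, 123 and 135 in XX and 542, 260 and 361 in XY samples. It overlaps the pseudogene Cyp2c53-ps on the same strand, whose levels were nearly the same in each sample (115, 123 and 138 in XX), so that the 2 entries may count the same transcripts. Cflar, which encodes the cell death inhibitor c-FLIP, was at 37.4, 35.0 and 18.3 in XX and 146, 72.6 and 83.0 in XY samples. Both genes were called with both scalings, with fold changes of 3.13 and 3.33. The XX and XY samples of each were apart, as the naming rule required. Cyp2c29 and Cflar were not called per spike-in UMI, with log2 fold changes of -0.79 and -1.11. Of the 15 tested genes of the BCL2 family and cell death list, none was called with either scaling.

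The remaining genes named for low levels in XX oocytes were Ttc39a, Smim3, Ccdc83, Prss37 and Trim6. Ttc39a was at 12.1, 9.10 and 11 in XX and 40.4, 30.9 and 49.5 in XY samples, and XO samples were at 8.28, 8.79 and 16.9. Prss37, a serine protease-like gene needed in sperm, was at 9.97, 9.10 and 5.18 in XX, 35.8, 18.2 and 27.8 in XY and 8.80, 7.24 and 9.60 in XO samples. In both, the XO pools were near the XX pools. Smim3, Ccdc83 and Trim6 were 3.55-fold, 3.42-fold and 3.18-fold lower in XX oocytes. Trim6 lost its call without XX2, XX3 or XY3, with log2 fold changes of -1.71 to -1.49 there. Ttc39a, Prss37, Smim3, Ccdc83 and Trim6 were not called per spike-in UMI, with log2 fold changes of -1.26, -1.21, -1.30, -1.19 and -1.04. Trim6, a ubiquitin ligase of the TRIM family, had 20.7, 35.7 and 112 in the XO samples, which spread more widely than either other genotype.

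Of the genes higher in XX oocytes, Phgdh and Spsb3 were called in each fit that left out 1 sample, whereas the other 8 of the 10 named were not. Phgdh, which encodes the first enzyme of serine synthesis (chr3:98313170-98339990), had 38.5, 32.9 and 33.2 normalized CPM in XX and 19.1, 8.79 and 12.7 in XY samples. The groups were apart, as the naming rule required. XX oocytes were 2.59-fold higher, with a log2 fold change of 1.37 ± 0.36. The unadjusted p (edgeR) was 0.00336 with the spike-in and 0.00110 with the gene factors, with adjusted p of 0.399 and 0.221. Spsb3, a SOCS box gene, had 34.9, 33.3 and 33.5 in XX and 11.6, 17.3 and 17.8 in XY samples. The XX pools differed little among themselves, and XX oocytes were 2.17-fold higher.

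Clock, a core gene of the circadian oscillator, was the most abundant of the 10, with 184, 146 and 145 in XX and 110, 91.8 and 78.2 in XY samples, a 1.70-fold difference. Grb10, an imprinted adaptor that restrains insulin and growth factor signalling, was at 24.2, 20.0 and 26.2 in XX and 12.1, 13.7 and 14.2 in XY samples. The XX and XY pools were apart for both genes, as the naming rule required. Clock lost its call without XY2 or XY3, with log2 fold changes of 0.66 to 0.75 there. The call of Grb10 was lost without XX3, where the log2 fold change was 0.70. Grb10 was not called per spike-in UMI, with a log2 fold change of 1.58. Of 17 tested imprinted genes, Grb10 was higher and Zrsr1 lower in XX oocytes with both scalings. Zrsr1, an intronless copy of a splicing factor gene that lies within Commd1, had only 1.78, 1.75 and 1.22 in XX and 5.58, 4.56 and 4.53 in XY samples. Zrsr1 was not called per spike-in UMI, with a log2 fold change of -1.02.

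Col4a4, a chain of basement membrane collagen, Tex26, Pwwp2a, a chromatin reader, and Zfyve21 were 2.25-fold, 1.79-fold, 1.73-fold and 1.69-fold higher in XX oocytes. Col4a4 lost its call without XX2, XY2 or XY3, with log2 fold changes of 0.83 to 1.14 there. Tex26 lost its call without XX2, XY2 or XY3, with log2 fold changes of 0.71 to 0.82 there. Pwwp2a lost its call without XY2 or XY3, with log2 fold changes of 0.61 to 0.83 there. Zfyve21 lost its call without XX1, XY1, XY2 or XY3, with log2 fold changes of 0.53 to 0.81 there. Ms4a1 and Fcgr1, known as genes of B cells and of macrophages, were at 65.5, 41.0 and 67.6 and 15.7, 12.6 and 11.9 in XX samples. In XY samples they were at 25.6, 20.8 and 36.2 and 7.90, 6.51 and 6.94. Both were called with both scalings. The call of Ms4a1 was lost without XY2, where the log2 fold change was 0.89. The call of Fcgr1 was lost without XY2, where the log2 fold change was 0.84. Beside them, the sums of the blood and immune markers given above overlapped between XX and XY samples.

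**Figure D3:**
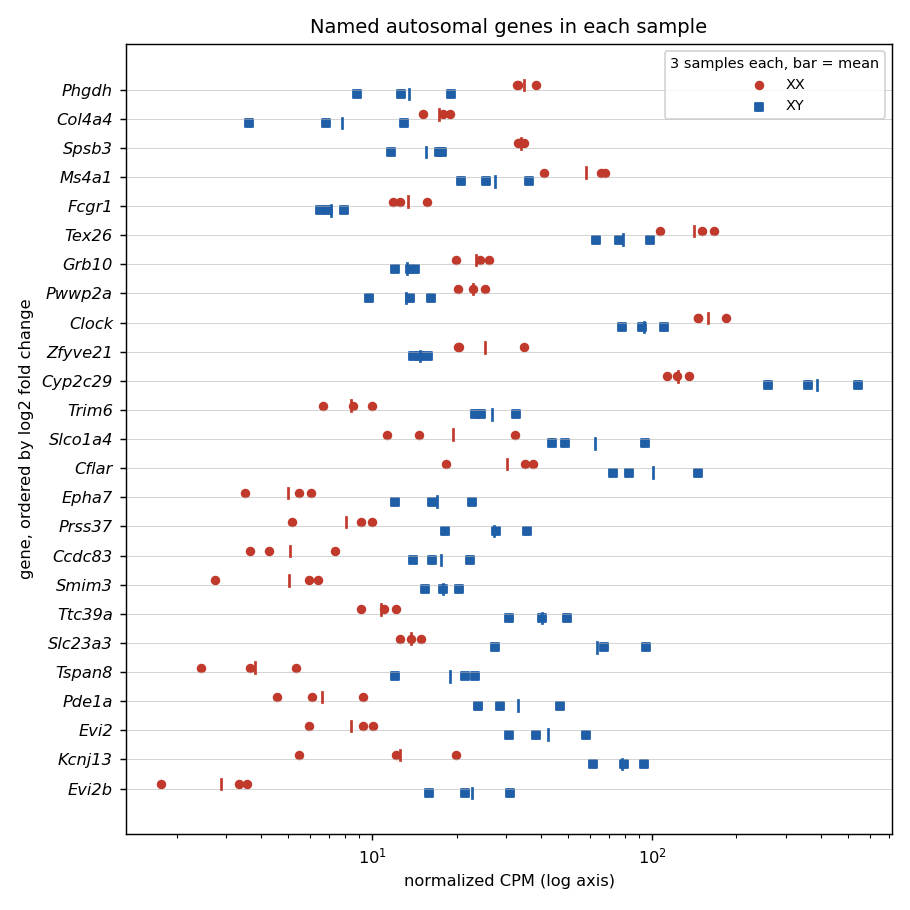
Normalized CPM (log x axis) of the 10 genes higher and 15 genes lower in XX oocytes that were named by the fixed rule (y axis, ordered by log2 fold change), as red circles for the 3 XX and blue squares for the 3 XY samples with a bar at each mean. No gene shown overlaps between the groups, because the rule required it, and the gap was widest for Evi2b.

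To ask which functions the differences touch, 47 lists of genes were examined, with 1633 tested genes in at least 1 list. Of these genes, 6 (0.367%) were higher and 30 (1.84%) lower in XX oocytes with both scalings, against 0.624% and 2.65% of all tested autosomal genes. The latter shares are the background of each list below, and few calls or none in a short list are no result about that list. In 21 lists no member was called with either scaling. The median log2 fold change was below 0 in 41 lists with the spike-in and in 30 with the gene factors. Each of the 47 medians changed sign under at least 1 alternative setting. Scaling per spike-in UMI alone moved the median of all tested genes from -0.20 to 0.48, so that a sign change need not be particular to a list. No direction is given for a list.

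In the lists of oocyte-specific functions no gene was called with both scalings, beside 0.624% higher and 2.65% lower of all tested autosomal genes. With lists this short, no call is near that share. None of the 7 tested zona pellucida and fertilization genes, of the 17 genes of the subcortical maternal complex and relatives and of the 13 oocyte transcription factors was called. Zp2, a zona protein, had 16343, 15914 and 17150 normalized CPM in XX and 10049, 16341 and 14911 in XY samples, and Nlrp14, an abundant oocyte NLRP gene, had 22519, 23043 and 15006 and 18348, 19465 and 11543. Gdf9, the oocyte growth factor that acts on granulosa cells, had 281 ± 34.4 in XX and 283 ± 60.1 in XY oocytes (SD, n = 3). For Zp2, Nlrp14 and Gdf9 the groups overlapped. Those of Nlrp5, an oocyte marker, did not, at 3751, 3012 and 3785 in XX and 2001, 2588 and 2719 in XY samples. Nlrp5 was not called with either scaling. In the list of TGF-beta family ligands, receptors and SMADs, with 17 genes tested, Bmp5 was lower in XX with the spike-in factors alone (32.8 ± 9.95 and 54.9 ± 12.1, SD, n = 3). Nobox, with 79.3 ± 25.6 and 109 ± 68.3, was not called.

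For growth and cell cycle control, none was called of 24 tested genes of PI3K, FOXO and mTOR control, 9 of the cAMP pathway of meiotic arrest and 27 of CDK1, cyclins and their regulators. This too is near the share of all tested genes. Ccnb1, the cyclin B1 that activates CDK1, had 1926, 1883 and 2697 in XX and 1084, 2584 and 2850 in XY samples. The most abundant members of the other 2 lists, Tsc2 and Gnas, spread over the XX and the XY pools alike, with 358 ± 178 and 145 ± 29.2 in XX and 568 ± 378 and 136 ± 61.0 in XY oocytes (SD, n = 3).

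Genes of meiotic chromosomes included single DEGs. In the list of synapsis and meiotic recombination, Mei1 and Msh4 of 22 tested genes were lower in XX oocytes with both scalings. This is 9.09%, from a short list, beside 2.65% of all tested autosomal genes. The median of the list was -0.45 with the spike-in and -0.31 with the gene factors. Msh4, a MutS homolog that stabilizes recombination intermediates, was at 17.8, 14.4 and 15.8 in XX and 52.1, 27.3 and 23.8 in XY samples. Mei1, needed for meiotic double-strand breaks, was at 7.48, 3.85 and 3.05 and 10.2, 10.7 and 13.0. All XX pools were below all XY pools for both genes, as for most called genes. The call of Mei1 was lost without XX2, where the log2 fold change was -1.11. The call of Msh4 was lost without XY1, where the log2 fold change was -0.68. Trip13, an ATPase that remodels HORMA domain proteins, was the one called gene among 32 of the spindle checkpoint and anaphase-promoting complex, with 8.19, 7.70 and 8.84 in XX and 16.7, 20.5 and 13.6 in XY samples. Mei1, Msh4 and Trip13 were not called per spike-in UMI, with log2 fold changes of -0.77, -0.19 and -0.21. Xpa, which recognizes bulky DNA lesions, was the one called among 40 of DNA damage response and repair, with a 1.88-fold difference. Xpa lost its call without XX1, XX2 or XY3, with log2 fold changes of -0.92 to -0.65 there. Xpa was not called per spike-in UMI, with a log2 fold change of -0.23.

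Other meiotic genes outside these calls were named after their values were seen. Meioc, a gene of early meiotic prophase, had 0.356, 0.700 and 0.609 in XX and 6.51, 4.88 and 4.53 in XY samples, with 1 or 2 UMIs in each XX sample. Ankrd31, a meiotic recombination gene, had 2.85, 2.10 and 2.13 and 12.1, 7.16 and 6.64, and Rad9b, a checkpoint clamp gene, 10.3, 9.80 and 7.62 and 25.1, 14.6 and 17.5. All XX pools were below all XY pools for these genes too, as for most called genes, and they were chosen with these values known. The call of Rad9b was lost without XY1, where the log2 fold change was -0.80. Ankrd31 and Rad9b were not called per spike-in UMI, with log2 fold changes of -1.09 and -0.35. Ncapg2, a condensin II subunit, was at 130, 123 and 84.1 in XX and 356, 171 and 194 in XY samples, and was called with the spike-in factors (0.0260, unadjusted p) but not with the gene factors (0.0578). None of the 23 tested genes of cohesin, condensin and shugoshin was called with both.

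Among chromatin genes, Kdm5b and Tet1 were lower in XX oocytes. Kdm5b, an H3K4 demethylase with an X-linked and a Y-linked relative, was at 27.8, 22.4 and 17.7 in XX and 49.3, 67.4 and 83.3 in XY samples, and its XO samples were at 13.5, 18.1 and 35.0. The log2 fold change was -1.56 ± 0.39 with the spike-in factors (unadjusted p 0.00293, adjusted p of 0.395) and -1.42 with the gene factors (unadjusted p 0.00190). The study found consistent Kdm5b reads in oocytes of this size only over the last exons, and described an oocyte-specific form. The counts are therefore not known to be of the full-length transcript. Kdm5b was the one called gene among 40 histone lysine methyltransferases and demethylases, and its autosomal relative Kdm5a was at 38.1, 33.6 and 25.6 in XX and 43.7, 25.7 and 31.4 in XY samples, which overlapped. Tet1, which oxidizes methylated cytosine, was at 6.06, 3.85 and 7.62 in XX and 12.1, 13.0 and 18.1 in XY samples, the one called of 15 genes of DNA methylation and imprint protection. Tet1 lost its call without XX1, XX2 or XY3, with log2 fold changes of -1.23 to -1.07 there. Kdm5b and Tet1 were not called per spike-in UMI, with log2 fold changes of -1.07 and -0.55.

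The 24 Polycomb group 1 and heterochromatin genes, 30 histone acetylases and deacetylases, 35 chromatin remodelling genes, 19 nuclear envelope and 29 nuclear pore genes had no member called with either scaling. Npm2, an oocyte histone chaperone and the most abundant gene listed with the histones, spread widely, with 976, 916 and 1771 in XX and 304, 1372 and 2292 in XY samples. Pcgf3, Hat1, Smarca2, Sun1 and Nup37, the most abundant genes of these lists in the same order, had means of 1120, 242, 231, 220 and 218 normalized CPM in XX and 1800, 277, 330, 324 and 301 in XY oocytes. Of 9 tested core and linker histone genes, Hist1h2bc was higher in XX oocytes with the gene factors alone.

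Genes that handle RNA included the one DEG of this comparison with the largest fold in favour of XX oocytes among the genes named. Larp6, an RNA-binding protein of the La family, had 7.12, 4.20 and 4.57 normalized CPM in XX and 2.32, 0.326 and 0.604 in XY samples, from 1 to 20 UMIs per sample. Each XX sample was above each XY sample, as for most called genes. The log2 fold change was 2.37 ± 0.78, with unadjusted p of 0.0116 and 0.00978 and adjusted p of 0.600 and 0.575 (edgeR). The fitted fold rests on few UMIs in XY samples. The call held in each fit that left out 1 sample. Of the 41 tested genes of mRNA storage and translational control it was the one called with both scalings, while Larp7, of the same family and named after its values were seen, was lower in XX oocytes with the spike-in factors alone (log2 fold change -0.64).

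In the RNA interference and piRNA list, with 23 genes tested, Ago4 was lower in XX oocytes with both scalings, at 3.21, 2.45 and 2.44 in XX and 6.51, 7.81 and 9.66 in XY samples. Ago2, the Argonaute that cleaves its targets, was higher in XX with the gene factors alone, at 31.0, 26.3 and 42.7 in XX and 12.5, 12.7 and 23.8 in XY samples. Ythdf1, a reader of the m6A mark, was the one called of 15 genes of m6A writers, readers and erasers, and was 1.55-fold higher in XX oocytes. Ythdf1 lost its call without XX1, XY1, XY2 or XY3, with log2 fold changes of 0.48 to 0.68 there. Ago4 and Ythdf1 were not called per spike-in UMI, with log2 fold changes of -1.02 and 1.34. Deadenylation and mRNA decay (41 genes tested), the spliceosome (54), RNA polymerase subunits (20), translation initiation factors (46), cytosolic ribosomal proteins (63) and mitochondrial ribosomal proteins (48) held no called gene. In these lists the most abundant genes, Cnot2, Snrpd1, Polr2g, Eif4e, Rpl5 and Mrpl48, had log2 fold changes between -0.23 and 0.06 with the spike-in factors.

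**Figure D4:**
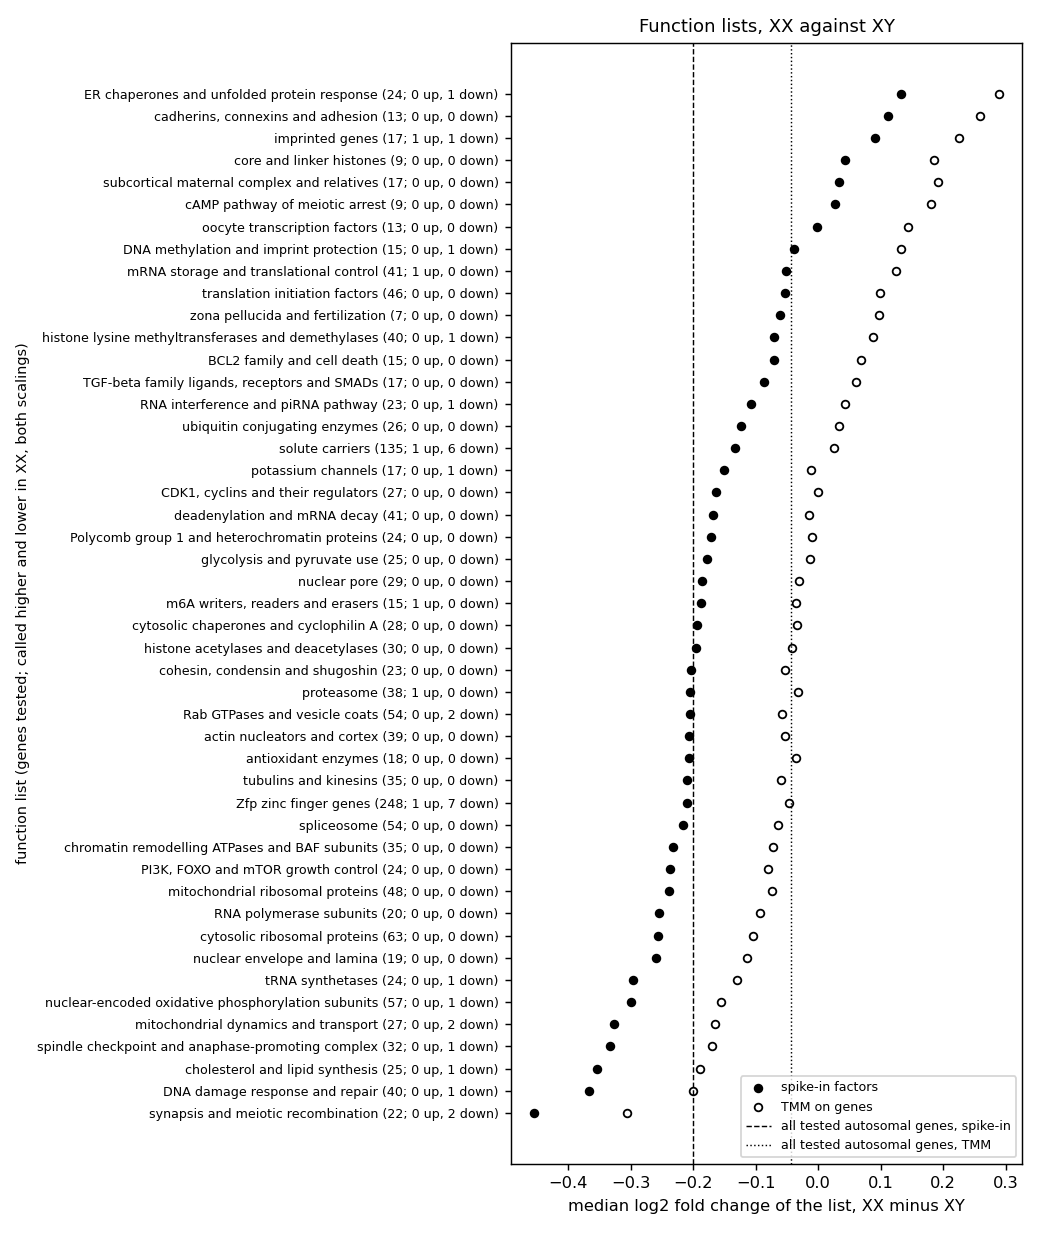
Median log2 fold change (XX minus XY, x axis) of each of the 47 function lists (y axis, with the genes tested and those called higher and lower in XX under both scalings) with spike-in factors (filled) and gene factors (open). The lines give the medians of all tested autosomal genes, -0.20 and -0.04, and the list of synapsis and meiotic recombination lies lowest, at -0.45 and -0.31.

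Mitochondrial functions held a few genes at lower levels in XX oocytes. Of 27 tested genes of mitochondrial dynamics and transport, Chchd3 and Tomm20 (7.41%) were lower with both scalings, beside 2.65% of all tested autosomal genes. Tfam, the packaging factor of mitochondrial DNA, was higher with the gene factors alone. Tomm20, a receptor of the import channel, was at 23.9, 20.3 and 14.9 in XX and 36.3, 36.1 and 30.8 in XY samples. Chchd3, a protein of the cristae junctions, was at 44.9, 37.1 and 33.2 and 59.0, 53.1 and 81.5. For both the groups were apart, as for most called genes, with fold differences of 1.74 and 1.68. Chchd3 lost its call without XX2, XX3 or XY3, with log2 fold changes of -0.73 to -0.53 there. Of 57 nuclear-encoded subunits of oxidative phosphorylation, Ndufc2 (1.75%) was lower with both scalings, at 13.2, 11.6 and 11.6 and 20.9, 18.2 and 22.3, and Ndufb5 with the spike-in factors alone. Ndufc2 lost its call without XX2 or XY3, with log2 fold changes of -0.73 to -0.68 there. The median of this list was -0.30 with the spike-in and -0.16 with the gene factors. Per spike-in UMI the differences of Tomm20, Chchd3 and Ndufc2 were within -0.20 to -0.09 on the log2 scale and none was called.

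Metabolism and protein handling gave single genes. Sqle, an enzyme of cholesterol synthesis, was at 10.3, 9.80 and 8.84 in XX and 19.1, 14.6 and 18.4 in XY samples, the one called of 25 genes of cholesterol and lipid synthesis. Sqle, Ears2 and Ero1l were not called per spike-in UMI, with log2 fold changes of -0.19, -0.22 and -0.48. Ears2, the mitochondrial glutamyl-tRNA synthetase, was the one called of 24 tRNA synthetases (1.88-fold lower in XX), and Psmg4, an assembly chaperone, the one called of 38 proteasome genes (2.32-fold higher in XX). The call of Ears2 was lost without XY1, where the log2 fold change was -0.66. The call of Psmg4 was lost without XY2, where the log2 fold change was 1.09. Ero1l, an oxidase of the endoplasmic reticulum, was lower in XX oocytes with both scalings among 24 genes of ER chaperones and the unfolded protein response, while Pdia4, a disulfide isomerase, was higher with the gene factors alone. Ero1l lost its call without XX2, XX3, XY1, XY2 or XY3, with log2 fold changes of -1.15 to -0.86 there. The median of that list was 0.13 and 0.29 with the spike-in and gene factors. Txnrd2, of the antioxidant enzymes, and Ube2r2, of the ubiquitin conjugating enzymes, were lower with the spike-in factors alone.

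None of 25 genes of glycolysis and pyruvate use and of 28 cytosolic chaperones was called. Ldhb and Hsp90aa1 were their most abundant genes, with 1046, 829 and 1803 and 4880, 4579 and 4798 in XX and 421, 1018 and 2147 and 3779, 5175 and 5729 in XY samples. Ppia, which encodes cyclophilin A, was at 45.6, 38.2 and 28.0 in XX and 46.9, 39.1 and 45.6 in XY samples. Tubb5, a beta tubulin, was at 16.4, 12.3 and 13.1 and 15.8, 10.4 and 21.4. For all 4 genes the groups overlapped.

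Cytoskeleton and trafficking held no gene higher in XX oocytes with both scalings, beside 0.624% of all tested autosomal genes. Rab4a and Rab40b, of the 54 tested Rab GTPases and vesicle coat genes, were lower, by 2.07-fold and 2.21-fold. They are 3.70% of the list, near the 2.65% of all tested autosomal genes. Rab4a lost its call without XX1, XX3, XY2 or XY3, with log2 fold changes of -1.08 to -0.85 there. Rab40b lost its call without XX3, XY1 or XY2, with log2 fold changes of -1.19 to -0.78 there. Rab4a and Rab40b were not called per spike-in UMI, with log2 fold changes of -0.47 and -0.66. Of 35 tubulins and kinesins, Kif1b and Kif3a were lower with the spike-in factors alone and Kif14, a kinesin of cytokinesis, was higher with the gene factors alone. Ctnnd1, the p120 catenin, was lower with the spike-in factors alone in the list of cadherins, connexins and adhesion, with 13 genes tested. The sign of Kif1b, Kif3a and Ctnnd1 turned per spike-in UMI, to differences of 0.041, 0.085 and 0.087 on the log2 scale. None of 39 genes of actin nucleators and cortex was called, and Rdx, which encodes radixin, was at 3434, 3319 and 2144 in XX and 4850, 2532 and 2141 in XY samples.

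Zinc finger genes of the Zfp series made up the largest list. Of 248 tested, 1 was higher (Zfp24) and 7 lower in XX oocytes with both scalings, which is 0.403% and 2.82%, beside 0.624% and 2.65% of all tested autosomal genes. Zfp24 lost its call without XX1, XX2, XY1, XY2 or XY3, with log2 fold changes of 0.95 to 1.05 there. The lower genes were Zfp260, Zfp459, Zfp677, Zfp872, Zfp947, Zfp975 and Zfp979. Zfp677, Zfp872 and Zfp947 were at 0.700 to 3.15 normalized CPM in XX and 2.60 to 8.79 in XY samples, from 2 to 27 UMIs per sample. Zfp677, Zfp872 and Zfp947 were not called per spike-in UMI, with log2 fold changes of -1.25, -0.65 and -0.80. Copies of such genes are alike in sequence, and how the counting treated reads that match several was not given in the sources used here.

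Of 7 Sertoli cell and testis-determining genes, 4 were tested, and Fgf9, a growth factor of testis differentiation, was lower in XX oocytes with both scalings. With 4 genes, its share cannot be set against the 2.65% of all tested autosomal genes. Fgf9 was at 7.84, 6.65 and 8.53 in XX and 12.5, 11.1 and 14.8 in XY samples, and the XO samples were higher than both, at 18.1, 19.1 and 25.4. Fgf9 lost its call without XX1, XX2, XY1 or XY3, with log2 fold changes of -0.75 to -0.60 there. Fgf9 was not called per spike-in UMI, with a log2 fold change of -0.023. Cldn11 was lower with the spike-in factors alone. The summed level of the list was 22.4 to 35.0 in XX, 45.1 to 52.2 in XY and 44.0, 56.4 and 71.7 in XO samples. Cldn11, Gstm6 and Sox8 overlapped between XX and XY samples. Dmrt1 and Ptgds were at 0 and Dhh had 1 UMI in the 6 XX and XY samples. Kitl, a granulosa cell marker that was detected in all pools, was higher in XX with the gene factors alone, at 17.1, 14.0 and 19.2 in XX and 13.0, 10.7 and 10.9 in XY samples.

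The DEGs lay on all autosomes. Between 0.971% (chromosome 17) and 4.23% (chromosome 15) of the tested genes of a chromosome were lower in XX oocytes with both scalings, and the 66 higher genes numbered 12 on chromosome 5 and 8 on chromosome 12 but 0 on chromosome 4. Called genes of the same direction within 250 kb of each other formed 33 runs with 71 genes, of which 4 runs had 3 or more. These were Lgr5 and Tspan8 with a clone on chromosome 10, Nf1, Evi2 and Evi2b on chromosome 11, Mfsd13b and Otoa with a clone on chromosome 7, and 4 genes of chromosome 13 (chr13:119836006-120215947), all lower in XX. In the last run 9 genes were tested. The share of all tested genes that lie this close to each other was not worked out, so that no clustering is claimed. Some runs hold entries that overlap, such as Evi2 and Evi2b within Nf1, or Cyp2c53-ps and Cyp2c29.

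At low levels, further genes stood out whose names were chosen after their values were seen. Abcg2, an efflux pump, had 0.712, 1.40 and 1.22 normalized CPM in XX and 10.2, 6.19 and 9.06 in XY samples, and Otx1, a homeobox gene, had 1.42, 1.05 and 0.609 and 5.58, 9.44 and 13.3. In XX samples these levels rest on as few as 2 UMIs. Both were called under all 3 scalings and in each fit that left out 1 sample, with adjusted p of 0.0623 and 0.108 with the spike-in factors. B2m, the light chain of MHC class I, was more abundant, at 52.7, 71.4 and 38.1 in XX and 169, 99.9 and 101 in XY samples. All its XX samples were below all its XY samples, as for most called genes. B2m was not called per spike-in UMI, with a log2 fold change of -0.52.

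For the genes called with both scalings, the mean of the XO samples was compared with the other means on a log2 scale (normalized CPM + 1), as a description. Of the 280 genes lower in XX, it was nearer to the XX mean for 96 and nearer to the XY mean for 184, and of the 66 higher genes, it was nearer to XX for 34 and to XY for 32. Evi2b, Evi2, Kcnj13, Kdm5b, Ttc39a and Prss37 were among the 96. Slc23a3 had 13.5, 85.8 and 82.4 and Slco1a4 119, 37.2 and 29.4 in XO samples, so that the 3 XO pools differed widely from each other.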

How the data were processed

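RNA of 9 pools of oocytes was sequenced with Smart-seq3, which reads 5′ ends with UMIs and keeps the strand. HISAT2 was used by the authors for alignment (GRCm38, Gencode), and the deposited table holds UMI counts per gene. The deposited normalized CPM is a signal made by the authors from these counts with the ERCC spike-ins, and its values were recomputed from the counts to a relative difference of 5e-15 or less. A deposited log2 matrix, from which the authors had regressed surrogate variables, was not used for tests. The column of XO counts without a number was taken as XO1, because XO2 and XO3 have their own.

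Counts were tested with edgeR 4.0.16 (quasi-likelihood test, two-sided, R 4.3.3) on all 9 samples with 1 mean per genotype, after its filter on low counts (minimum count 10), with spike-in factors and again with TMM factors on genes. Genes were called at an unadjusted p below 0.05, and adjusted p-values (Benjamini-Hochberg) cover all 10993 tested genes of all chromosomes. Fold changes are XX minus XY. Alternatives were DESeq2 1.42.0, limma 3.58.1 with and without surrogate variables (sva 3.50.0), a replicate block, other filters and scalings, and each sample left out. The tests were checked on simulated data.

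The members and gene lists were chosen with earlier results of these data known. Named genes are, by rule, (a) the 10 largest positive and 15 largest negative log2 fold changes among genes called with both scalings, without overlap, at a mean of at least 10 normalized CPM and with no clone or pseudogene name, (b) genes with an adjusted p below 0.05, (c) up to 3 called members per function list, or else its most abundant member, (d) autosomal genes the study measured singly and (e) marker genes. Other genes were named after their values were seen, which holds for Larp7, Slc9a2, Zfp24, Hist1h2bc, Ago2, Pdia4, Tfam, Kif14, Ndufb5 and the members listed without values. Total UMIs on genes were 2130145 to 3157338 per sample in XX and XY, and 3 UMIs over a group correspond to 0.335 normalized CPM in XX and 0.351 in XY. No pair of samples agreed within sampling noise in a chi-square comparison of counts (3.20 or more per degree of freedom).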

Additional observations from a re-analysis of the deposited data

How the results depend on the processing

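Counts higher and lower in XX oocytes (spike-in factors) and lower with both scalings moved with the processing, while the counts higher with both scalings followed those with the spike-in factors. They were 418, 1907 and 1320 with surrogate variables, 136, 740 and 442 with the XX and XY samples alone, and 150, 880 and 612 without a filter on low counts. A fold change beyond 2 left 285 lower genes, 178 with both scalings and 11 function lists with a called member, instead of 19. The adjusted threshold left 0 higher, 1 lower (1 with both scalings) and 0 lists. Library sizes from the ERCC total gave 137 higher and 24 lower, and TMM factors on genes 162 and 281. Surrogate variables gave 43 lists. Leaving out 1 sample gave 24 to 84 higher, 261 to 420 lower, 24 to 83 higher and 182 to 258 lower with both scalings, and 10 to 17 lists. DESeq2 and limma-voom without surrogate variables stayed within 1.5 times of the counts reported.

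With a replicate block 133 genes were higher and 712 lower, 457 with both scalings. Correlations of XX and XY samples of the same number were 0.44, -0.06 and 0.73, the last the highest of all, while XX2 correlated best with XY1, at 0.49. These correlations are of deviations from means of 3 samples, which bind each other. Whether the numbers pair the samples therefore cannot be told from them. The sign of Ctnnd1, Kif1b and Kif3a turned to 0.087, 0.041 and 0.085 with library sizes from the ERCC total. Of 71 named genes called, 9 kept their call under all 14 alternatives, and the ERCC total ended 53 calls, the missing filter 23 and TMM on genes 10. The cause was not tested. Depth limits genes of a few UMIs, such as Larp6 and Meioc.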
